A study of Mus musculus with 59 samples.

Results

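Cornified envelope genes encode the proteins, cross-linking enzymes and inhibitors that build the tough shell of stratified squamous epithelium, the lining of the mouse forestomach. They were chosen by name: probes whose transcript accession belongs to a gene of the small proline-rich (Sprr), late cornified envelope (Lce) or stefin A (Stfa) families, or to Lor, Ivl, Cnfn, Tgm1, Tgm3, Rptn, Crct1, Csta1 or Krtdap. The rule found 43 genes (50 probes) of the 37163 genes or transcripts on the array: 16 Lce genes, 14 Sprr genes, 4 stefin A genes and 9 genes named singly. A further gene of the rule, Flg, is not analysed here. Csta1 is named for cystatin A, another name of stefin A, but is counted by its symbol among the genes named singly. Below, stefin A genes are only the 4 with Stfa symbols.

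RNA came from male Muta™Mouse, a transgenic mutation-assay strain, about 16 weeks old and housed individually. The mice were gavaged daily for 28 days with olive oil alone (vehicle, dose 0) or with benzo(b)fluoranthene (BbF), a polycyclic aromatic hydrocarbon, in olive oil at 25 (low), 50 (medium) or 100 (high) mg/kg-bw/day, and tissues were taken 72 h after the last dose. Mice 1 to 5 were vehicle, 6 to 10 low, 11 to 15 medium and 16 to 20 high, and 1 number stands for the same animal in forestomach (20 arrays), lung (19 arrays, with 4 at the low dose) and liver (20 arrays). The labels disagree on the compound, since BbF stands in the sample titles and dosing description but benz(a)anthracene in 1 sample attribute and the series design, and BbF is used here. Sample RNA carried the dye Cy5 and universal mouse reference RNA, a pool from mouse cell lines, carried Cy3 on every array, so values are log2(Cy5/Cy3) of the sample over that pool. Each sample was RNA of random sections of a whole tissue, in which fewer cells of a type and less RNA per cell cannot be told apart.

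In squamous epithelium, dying upper cells replace their plasma membrane by a layer of proteins that transglutaminases (Tgm1, Tgm3) weld together. Involucrin (Ivl) is among the early scaffold proteins, loricrin (Lor) is the main reinforcing protein, and Sprr and Lce proteins are further building blocks. Stefin A proteins are inhibitors of cysteine proteases that are incorporated in the envelope and are also known from neutrophils. The forestomach of the mouse is a keratinized part of the stomach that is in direct contact with gavaged material.

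The promoters of the genes with the largest high-dose differences in forestomach are shown, because these genes fall into families with shared start-site sequence. RefSeq (GRCm38.p6, matched by symbol) had an entry for 39 of the 43 genes, and Crct1, Lce1f, Sprr2g and Sprr2j-ps are named only. Each line gives the 250 bases before the start site, 5′ to 3′ on the gene's strand. Capitals mark the letters TATAAA, the related letters TTTAAA, or TGANTCA, the motif bound by AP-1 factors (searched on both strands). The 4 stefin A promoters lie at chr16:36276898-36277147 (Stfa1, plus strand), chr16:36408364-36408613 (Stfa2, minus), chr16:36156561-36156810 (Stfa2l1, plus) and chr16:36455393-36455642 (Stfa3, minus).
Stfa1: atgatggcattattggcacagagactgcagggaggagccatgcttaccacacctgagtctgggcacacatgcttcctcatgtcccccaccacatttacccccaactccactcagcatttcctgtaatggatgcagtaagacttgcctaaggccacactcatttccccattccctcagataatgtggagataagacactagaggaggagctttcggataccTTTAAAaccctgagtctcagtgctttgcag
Stfa2: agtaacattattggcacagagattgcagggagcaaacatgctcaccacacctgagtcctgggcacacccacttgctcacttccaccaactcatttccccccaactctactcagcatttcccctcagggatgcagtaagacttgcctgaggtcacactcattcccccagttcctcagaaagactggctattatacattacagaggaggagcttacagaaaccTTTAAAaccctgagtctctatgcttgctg
Stfa2l1: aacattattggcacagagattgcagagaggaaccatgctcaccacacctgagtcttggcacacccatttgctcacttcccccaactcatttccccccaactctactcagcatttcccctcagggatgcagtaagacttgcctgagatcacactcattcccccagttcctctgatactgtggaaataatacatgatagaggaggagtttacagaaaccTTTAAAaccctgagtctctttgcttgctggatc
Stfa3: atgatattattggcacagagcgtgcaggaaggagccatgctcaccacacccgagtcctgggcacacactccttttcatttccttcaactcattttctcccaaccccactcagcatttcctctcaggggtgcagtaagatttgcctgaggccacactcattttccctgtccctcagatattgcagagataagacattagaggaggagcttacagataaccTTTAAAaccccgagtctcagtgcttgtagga
The Sprr2k (chr3:92432332-92432581, plus strand), Sprr2f (chr3:92364937-92365186, plus) and Ivl (chr3:92573736-92573985, minus) promoters lie together on chromosome 3.
Sprr2k: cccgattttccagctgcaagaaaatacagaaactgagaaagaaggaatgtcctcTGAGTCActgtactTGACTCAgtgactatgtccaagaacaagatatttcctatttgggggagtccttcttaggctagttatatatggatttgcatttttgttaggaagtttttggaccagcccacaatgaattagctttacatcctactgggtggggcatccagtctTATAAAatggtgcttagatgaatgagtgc
Sprr2f: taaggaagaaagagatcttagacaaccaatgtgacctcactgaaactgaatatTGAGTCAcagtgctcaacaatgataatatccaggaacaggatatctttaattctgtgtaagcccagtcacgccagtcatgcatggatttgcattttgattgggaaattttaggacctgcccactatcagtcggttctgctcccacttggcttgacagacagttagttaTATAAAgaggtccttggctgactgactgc
Ivl: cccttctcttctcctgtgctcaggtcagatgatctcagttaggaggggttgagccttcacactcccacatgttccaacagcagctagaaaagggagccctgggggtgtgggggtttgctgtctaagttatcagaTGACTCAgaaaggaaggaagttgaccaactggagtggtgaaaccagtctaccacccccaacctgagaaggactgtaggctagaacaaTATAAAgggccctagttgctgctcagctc
All 4 stefin A promoters held TTTAAA within 29 to 33 bases of the start site, against 1.42% of all 32851 promoters with it 15 to 40 bases before the start. They also shared the runs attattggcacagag and actcagcatttcc. Sprr2k, Sprr2f and Ivl each held TATAAA 29 bases before the start, which 16 of the 39 envelope promoters and 2.5% of all promoters held in that window. TGANTCA was found in 13 of the 39 (9 of 12 Sprr, 0 of 15 Lce and 0 of 4 Stfa entries) and in 6.75% of all promoters of the same length. GCGTG, the core of the element bound by the aryl hydrocarbon receptor, was found in 4 of the 39 and in 28.2% of all. These matches describe letters in a window and not binding.

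Squamous markers followed the tissue labels on all arrays but 1 of lung. Forestomach arrays had a mean log2 ratio of 4.29 to 5.06 over 6 squamous markers (Krt4, Krt13, Krt5, Krt14, Krt15, Trp63). The same mean was at most -0.27 in lung outside mouse 6, where it was 3.46. Glandular stomach markers varied between 0.26 and 6.26 over the forestomach arrays and spread widely inside every dose group: in vehicle from 0.83 to 5.79, and in the high group 0.54 for mouse 20 and 5.07 to 5.67 for the others. Their part in the results below was not tested. Of all probes, 39.6% to 52.0% were well above background on forestomach arrays, 44.8% to 68.8% on lung arrays and 10.72% to 46.2% on liver arrays. Here and below, whether a gene was above background was read from its probe brightest in forestomach. Other probes of Lce1a2 and Sprr2a2 were well above background on all 20 liver arrays. In liver, 1 of the 3 slides stood apart: its 8 arrays had 10.72% to 12.9% of probes and 0 envelope genes well above background. Each of the other 12 arrays had 37.0% or more of probes and 4 to 8 envelope genes above it. The slide of those 8 arrays, named the third slide here, held 3 of the 5 high-dose arrays and 1 of the 5 vehicle arrays. Liver results are therefore given with and without that slide. As samples are separate mice, errors are between animals.

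The lung array of low-dose mouse 6 stood apart in many of these genes and in other squamous genes. It was the highest of 19 lung arrays for 30 of the 43 genes, and for 26 of them by more than 1 log2 unit. Among the other 18 lung arrays, medium-dose mouse 13 had 17 envelope genes and 68.8% of all probes well above background. The remaining ones had at most 10 envelope genes and 52.7% of probes (both mouse 19). On the array of mouse 6, 33 envelope genes were well above background, against 6 to 17 on the other 18. All 16 Lce genes were highest there, with a median of 4.35 and up to 7.26 for Lce3a. Lor stood at 6.35 and Crct1 at 6.80. By contrast, Sprr2d was at 0.10 and Sprr2i at 0.29, although no forestomach array was below 5.28 and 5.96 for them. Krt4 (5.73) and Krt13 (4.17) were high too, as were the means of envelope proteases and lipid enzymes (2.66, others at most 0.54), desmosome genes (2.23, others at most 0.75) and other envelope and granule proteins (1.496, others at most 0.27), whereas the glandular markers averaged 0.49 and the lung markers Sftpc and Scgb1a1 averaged 7.41, inside the lung range of 7.35 to 8.03. Results that rest on lung are therefore given with and without this array. Lung vehicle mouse 4 was high for a few genes (Sprr2a2 3.08, Lor 2.65, Krtdap 1.05), with a glandular marker mean of 1.52 and a squamous marker mean of -0.52.

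The reference channel was not constant for the brightest genes. Although every array received the same pool, Cy3 was over 1 log2 unit higher on forestomach than on the other 18 lung arrays for 24 of the 43 genes, among them all 16 Lce genes (median difference 3.65) and none of the 4 stefin A genes. Lor, for example, had a mean log2 Cy3 of 11.3 in forestomach and 5.83 in lung, and 9.43 on the lung array of mouse 6. The cause was not tested. Where Cy3 moves with Cy5 a ratio differs less than Cy5 does. High-dose results are therefore given for Cy5 alone as well, a check chosen after the data were seen. Cy5 alone means the Cy5 value after loess within arrays, quantile-normalized between the arrays of a tissue. As loess was fitted on the ratio of both channels, these values are not wholly free of Cy3. Stfa1, Stfa2l1, Sprr2k, Sprr2f, Stfa3 and Ivl had a Cy3 signal well above background on at most 2 of 20 forestomach arrays, so that their ratios follow Cy5 over a floor. No envelope gene had a saturated Cy5 spot in forestomach.

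In vehicle mice the envelope genes were forestomach genes. Against lung, 41 of the 43 were called higher in forestomach by limma's moderated test (a change of at least 1.5-fold with p at most 0.05 after Benjamini-Hochberg adjustment), where 11.9% of all genes were. Against liver it was again 41, where 14.1% of all genes were. Csta1 and Sprr4 were the exceptions in both. A gene counted as called when any of its probes passed, and other probes of Sprr2a2 and Tgm3 were not higher in forestomach than in lung. Their mean vehicle log2 ratios were 0.17 in forestomach and 0.36 in lung for Sprr2a2, and 0.83 and 0.98 for Tgm3. Second probes of Ivl, Lce1a2, Lce1c and Lce1i and a further probe of Sprr2a2 were higher in forestomach. Without the third liver slide Csta1 was called against liver as well, 42 in all. The median difference of the fitted log2 ratios to lung was 5.90 for Lce, 4.76 for the singly named genes, 3.64 for Sprr and 1.96 for Stfa, and to liver 5.78, 5.92, 3.43 and 2.87. By the probe brightest in forestomach, 40 of the 43 were well above background on all 20 forestomach arrays, 5 on all 19 lung arrays and 0 on all liver arrays. Other probes of Lce1a2 and Sprr2a2 were well above background on all 20 liver arrays, and other probes of Sprr2a2 and Tgm3 on all 19 lung arrays. For 29 genes the probe brightest in forestomach was above background on no vehicle lung array. Their difference by that probe is a lower bound on the scale of normalized Cy5. It ran from at least 2.24-fold to at least 1236-fold (Lce1a1), with a median bound of 249-fold. Against liver the bounds of 33 such genes ran from at least 1.94-fold to at least 2151-fold (Krtdap). Cnfn, coding for cornifelin, was the clearest lung signal among the singly named genes: its vehicle log2 ratio was 2.54 ± 0.44 (SD, n = 5) in lung, 5.96 ± 0.09 in forestomach and -0.04 ± 0.15 in liver. Leaving out lung mouse 6 left 41 called against lung.

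**Figure D1:**
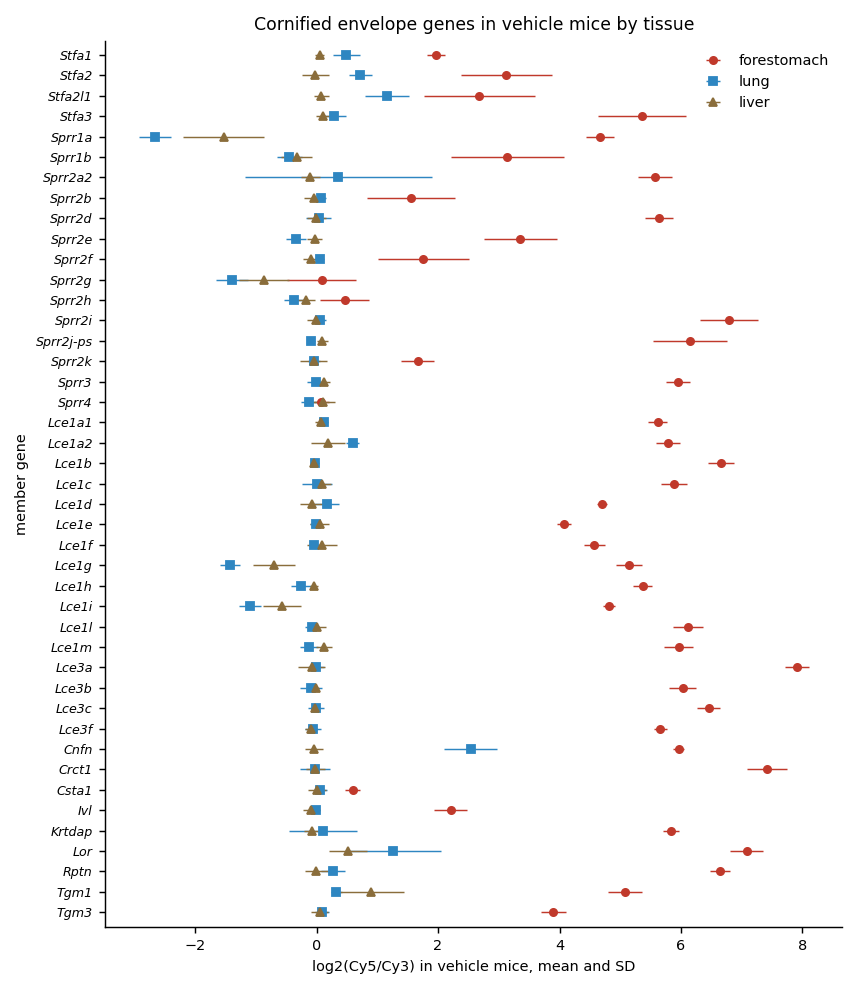
Mean log2(Cy5/Cy3) with SD of the 43 genes in vehicle mice (n = 5 per tissue), horizontal axis in log2 units, one line per gene. Forestomach points lie right of lung and liver for nearly all genes. Sprr4 and Csta1 lie close together across tissues, and values of different genes are not comparable, as each has its own probe.

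At the high dose no envelope gene passed the test in forestomach. The limma count was 0 of 43, where 0.102% of all genes (38) were called, and 15 envelope genes had an unadjusted p under 0.05 (5 higher, 10 lower) against 9.03% of all genes. The families differed in the sign of their values. All 4 stefin A genes with Stfa symbols were higher than in vehicle (median log2 change 1.73, range 0.74 to 2.80). Csta1, counted among the singly named genes, was at 0.06 (Cy5 alone 0.20). It was well above background on only 12 forestomach arrays. Of the 14 Sprr genes 11 were higher (median 0.26, range -0.11 to 1.504). Of the 16 Lce genes 15 were lower (median -0.20, range -0.32 to 0.03), and of the 9 singly named genes 6 were lower (median -0.13, range -0.92 to 0.09). Over all 43 the median was -0.078 and over all genes on the array -0.00098. Centring each array on its median in place of loess turned 41 of 43 to the higher side (median 0.23, where all genes had 0.077), so the small negative values of Lce and Lor have no settled sign.

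**Figure D2:**
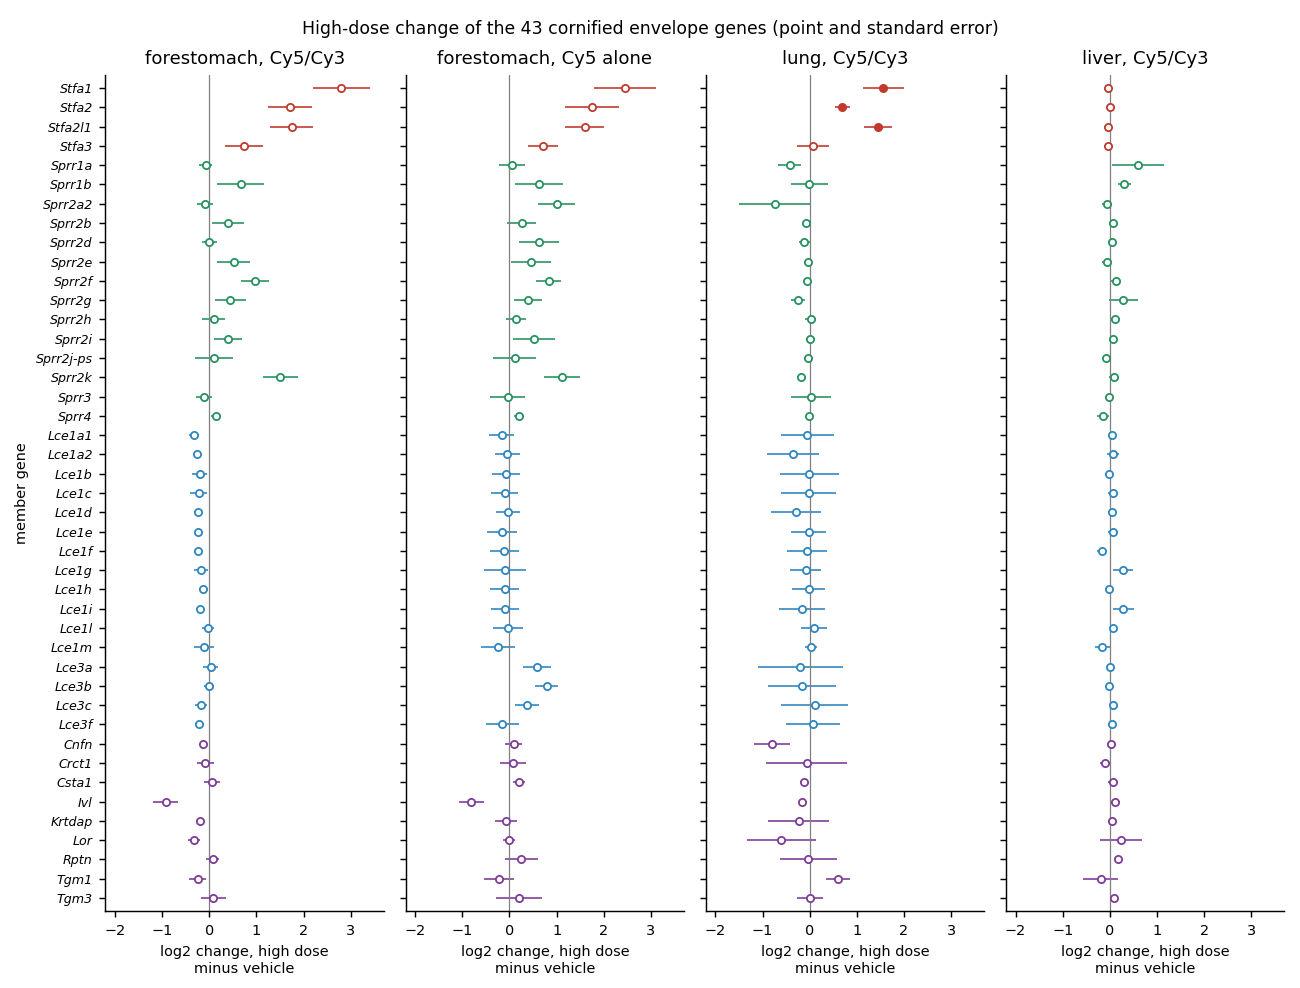
High-dose minus vehicle log2 change (point) and standard error (bar) of the 43 genes, as ratio in forestomach, as Cy5 alone in forestomach, and as ratio in lung and liver, with colours for the 4 gene groups. Filled points passed the test, which were Stfa1, Stfa2 and Stfa2l1 in lung.

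Stfa1 had the largest high-dose value, 2.80 ± 0.61 (SE) on the log2 scale, 6.97-fold with a 95% interval of 2.90 to 16.8, and limma's adjusted p of 0.0962. The 5 vehicle mice had log2 ratios of 1.99, 2.02, 2.16, 1.76 and 1.90. The high-dose mice had 4.18, 4.15, 4.85, 4.02 and 6.63. No high-dose mouse overlapped with a vehicle mouse, and mouse 20 was highest. At the low dose the values were 3.12, 1.22, 0.91, 2.66 and 4.59, on either side of vehicle. At the medium dose they were 3.20, 4.94, 4.18, 2.71 and 2.66, all above vehicle. Within each of the 3 slides the high-dose value exceeded that of vehicle, by 2.60, 2.16 and 4.48. The first 2 compare 2 high-dose with 2 vehicle mice, and the last compares 1 with 1. The call depended on the processing: with the slide as a block limma's adjusted p was 0.0375, and with median centring the change was 2.36 (limma adjusted p 0.0332).

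Stfa2 went from 3.34, 3.29, 3.43, 3.74 and 1.81 in vehicle to 4.58, 4.39, 5.14, 4.85 and 5.19 at the high dose, a change of 1.71 ± 0.46 (limma adjusted p 0.214). Mouse 5 was far below the other vehicle mice, and without it the change was still 1.38 (the lowest of the runs that leave out 1 mouse). Stfa2l1 had 3.18, 2.88, 2.08, 3.78 and 1.46 in vehicle and 4.15, 3.97, 4.82, 4.28 and 4.88 at the high dose, a change of 1.74 ± 0.45 (limma adjusted p 0.192). Groups did not overlap for either gene. Stfa3 overlapped, with 5.51, 6.01, 4.16, 5.82 and 5.26 in vehicle and 5.81, 6.14, 6.37, 6.20 and 5.94 at the high dose, a change of 0.74 ± 0.40 (limma adjusted p 0.636). The stefin A genes are close copies of each other, as are many Sprr2 and Lce1 genes, so probes may read related transcripts and a value is that of its probe. Of the 43 genes, 4 (Stfa1, Stfa2, Stfa2l1 and Sprr2k) had all high-dose arrays above all vehicle arrays, against 1.32% of all genes, and 3 (Ivl, Lce1d and Lce3f) had all below, against 1.16%.

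**Figure D3:**
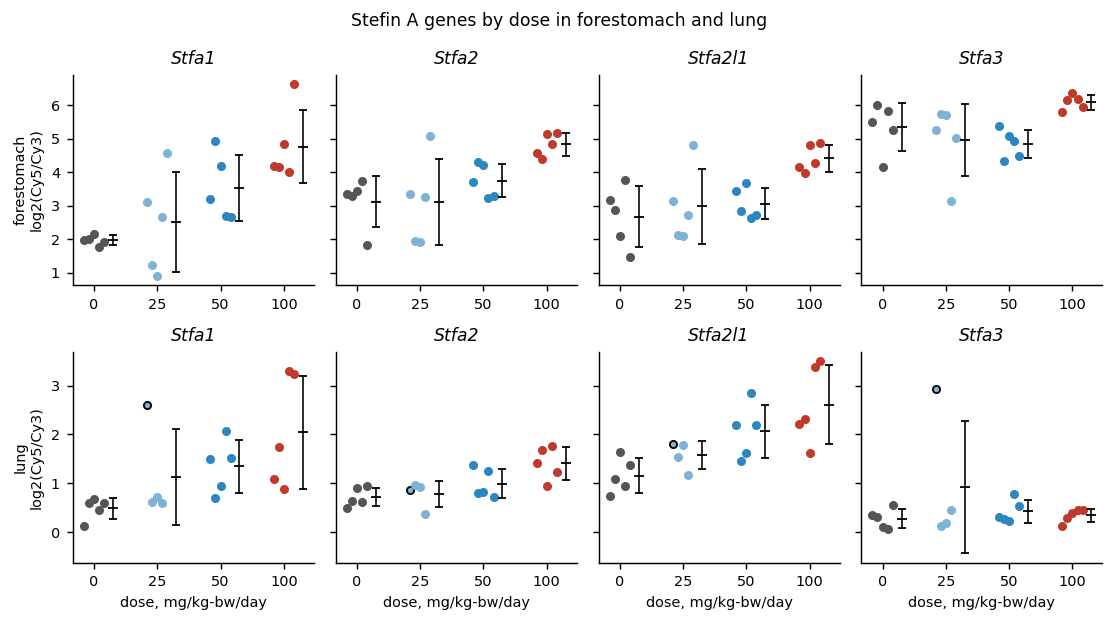
log2(Cy5/Cy3) of the stefin A genes by dose (mg/kg-bw/day, evenly spaced) in forestomach (top) and lung (bottom), 1 point per mouse with mean and SD beside it. The black outline is the lung array of mouse 6. High-dose forestomach points of Stfa1, Stfa2 and Stfa2l1 lie above all vehicle points, and those of Stfa3 overlap with vehicle.

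Sprr2k, a small proline-rich protein gene, had vehicle values of 1.31, 1.88, 1.78, 1.91 and 1.44 and high-dose values of 2.78, 3.25, 3.34, 2.71 and 3.75. The groups did not overlap, and the change was 1.504 ± 0.37 (2.84-fold) (limma adjusted p 0.165). Low-dose values spread from 1.15 to 3.19 and medium-dose values from 1.45 to 3.56. Within slides the change was 1.35, 1.42 and 1.97 (the last from 1 high-dose and 1 vehicle mouse), and with median centring it was 1.26 (limma adjusted p 0.0396). Sprr2f, whose promoter shares the run atggatttgcatttt with Sprr2k, had 1.89, 2.41, 0.49, 2.15 and 1.85 in vehicle and 2.68, 2.70, 3.14, 2.40 and 2.72 at the high dose. Mouse 3 was far below the other vehicle mice, and the change was 0.97 ± 0.30 (limma adjusted p 0.279). Sprr1b (0.66 ± 0.51), Sprr2e (0.52 ± 0.35) and Sprr2g (0.45 ± 0.33) were the next, with limma adjusted p of 0.739 to 0.774. Sprr2a2 was read differently by its 3 probes, with changes of -0.08, 0.02 and 0.99.

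Ivl had the largest negative value. The 5 vehicle mice had 1.97, 2.61, 2.17, 2.31 and 1.97, the high-dose mice 1.19, 1.33, 1.49, 1.38 and 1.04, and the medium-dose mice 0.97, 1.70, 0.71, 0.58 and 1.13. Neither the high-dose nor the medium-dose mice overlapped with vehicle. All high-dose arrays lay below all vehicle arrays for 1.16% of all genes, and no such share is at hand for the medium dose. The high-dose change was -0.92 ± 0.27 (limma adjusted p 0.251) and the medium-dose change -1.19 ± 0.27 (limma adjusted p 0.633). A second Ivl probe gave -0.74 ± 0.25 at the high dose. Low-dose values ran from 0.78 to 2.87.

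Lor, among the 3 genes with the brightest probes, had 7.31, 7.32, 6.69, 6.91 and 7.18 in vehicle and 6.80, 6.67, 6.76, 6.63 and 6.92 at the high dose, which overlap (-0.33 ± 0.12, limma adjusted p 0.425). Lce1a1 (-0.32 ± 0.097, limma adjusted p 0.267) and Lce1a2 (-0.26 ± 0.086, limma adjusted p 0.322) had the largest negative changes of the Lce genes. Krtdap, coding for a secreted keratinocyte differentiation protein, was at -0.20, Tgm1 at -0.25 and Cnfn at -0.13. Crct1 (-0.08), Csta1 (0.06), Rptn (0.08) and Tgm3 (0.09) had the smallest changes among the singly named genes. None of these passed the test, and the limma adjusted p of those named here ran from 0.267 to 0.962.

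**Figure D4:**
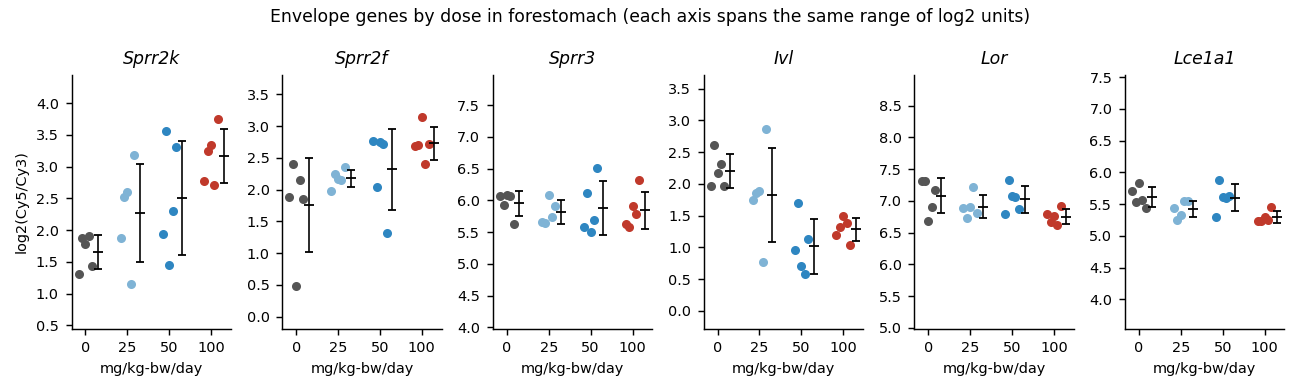
log2(Cy5/Cy3) in forestomach by dose (mg/kg-bw/day, evenly spaced) for 6 genes, 1 point per mouse with mean and SD beside it, every axis spanning the same range of log2 units. High-dose points lie above all vehicle points for Sprr2k and below them for Ivl, whereas those of Sprr3, Lor and Lce1a1 overlap with vehicle.

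How closely the dose groups were held together depended on the channel used. With ratios, the 95% interval of the high-dose change lay within 1.5-fold either way for 25 of 43 genes, and for 15 of 16 Lce genes. With Cy5 alone it did for 6 of 43 and 1 of 16, with a median standard error of 0.31. Cy5 alone called 0 envelope genes, and gave 8 higher and 1 lower at an unadjusted p under 0.05. For this channel no share of all genes is at hand, so these counts are not read as a result about the envelope genes. Stfa1 was then at 2.44 ± 0.66, Stfa2 at 1.75 ± 0.57, Stfa2l1 at 1.60 ± 0.41, Stfa3 at 0.70 ± 0.32, Sprr2k at 1.11 ± 0.39, Sprr2f at 0.83 ± 0.27 and Ivl at -0.81 ± 0.28. Among the bright genes, Sprr2a2 moved from -0.08 to 1.00 ± 0.39 and Lce3b from -0.01 to 0.79 ± 0.25, whereas Lor moved to -0.01 ± 0.13. The Lce median was -0.091 and the Sprr median 0.42. For Lce genes, whose Cy3 was high in forestomach, the narrow intervals of the ratio were not found in Cy5.

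The lower doses gave no call in forestomach. At the medium dose limma called 0 envelope genes (0% of all genes), with 3 at an unadjusted p under 0.05 (Stfa1, Sprr2k and Ivl) against 5.84% of all. At the low dose it called 0 (0% of all genes), with 7 at an unadjusted p under 0.05, all lower, against 4.7% of all. These were 5 Lce1 genes, Tgm1 and Cnfn, the Lce values lying between -0.32 and -0.23. A straight line over the 4 doses called 1 envelope gene, Stfa1, where 0.0888% of all genes were called. The fitted Stfa1 change from vehicle to the high dose was 2.88 ± 0.56 (7.35-fold, limma adjusted p 0.0413). The call was lost in 14 of 20 runs that leave out 1 mouse (mice 1 to 6, 11, 13, 14 and 16 to 20, with an adjusted p of 0.0148 to 0.126 over all runs), and with Cy5 alone (2.48, limma adjusted p 0.154). The lines for Sprr2k (1.44 ± 0.34, limma adjusted p 0.124), Stfa2 (1.83 ± 0.43, 0.123) and Stfa2l1 (1.73 ± 0.43, 0.137) did not pass.

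In lung, where most envelope genes were near background, 3 stefin A genes rose. At the high dose limma called Stfa2l1, Stfa2 and Stfa1 of the 43, where 1.93% of all genes were called. Stfa2l1 went from 0.73, 1.08, 1.64, 0.95 and 1.38 in vehicle to 2.21, 2.32, 1.62, 3.39 and 3.50 (1.45 ± 0.30, limma adjusted p 0.00533). Stfa1 went from 0.13, 0.61, 0.67, 0.45 and 0.59 to 1.09, 1.74, 0.88, 3.30 and 3.23 (1.56 ± 0.43, limma adjusted p 0.0348). Stfa2 went from 0.50, 0.64, 0.91, 0.61 and 0.94 to 1.42, 1.67, 0.94, 1.77 and 1.24 (0.69 ± 0.16, limma adjusted p 0.0108). Stfa3 was at 0.07 ± 0.34 (limma adjusted p 0.954). Csta1 was at -0.13 and was well above background on 0 lung arrays. Mice 19 and 20 were the highest for Stfa1 and Stfa2l1, and mouse 18 overlapped with vehicle for Stfa2l1. Non-overlap was held by 2 genes above vehicle (Stfa1, Tgm1), against 4.24% of all genes, and by 1 below (Lce1a2), against 2.99%. The Stfa1 call was lost without any 1 of mice 1, 2, 3, 4, 5, 17, 19 or 20, with a range of 1.24 to 1.85. Within slides Stfa1 was higher by 1.05 (2 high-dose against 2 vehicle mice), 0.32 (1 against 2) and 2.68 (2 against 1). Without lung mouse 6 the adjusted p of the 3 genes were 0.00587, 0.0124 and 0.0135 (Stfa2l1, Stfa2, Stfa1). With Cy5 alone only Stfa2l1 passed (1.29, limma adjusted p 0.00437), as Stfa1 (1.14, 0.0683) and Stfa2 (0.78, 0.0749) did not.

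Some neutrophil markers were higher in lung at the high dose too, and no association with the stefin A genes was computed. Of 8 neutrophil markers, Retnlg (1.26 ± 0.33, limma adjusted p 0.0262) and S100a8 (1.20 ± 0.34, limma adjusted p 0.0401) were called, where 1.93% of all genes were. Of the 8, 6 were higher and 2 lower, with a median of 0.36. Their mean log2 ratio ran from 1.82 to 2.26 in vehicle and from 2.22 to 3.07 at the high dose, with mice 19 (3.07) and 20 (2.69) again the highest. Of the 8, all but Ngp (9 of 19) and Mpo (6 of 19) were above background on every lung array. Medium-dose mouse 14 (2.96) lay between mice 19 and 20. In forestomach 0 of 8 were called by limma, where 0.102% of all genes were. There 1 had an unadjusted p under 0.05 (S100a9, 0.79, limma adjusted p 0.565), against 9.03% of all genes. There their mean ran from 0.42 to 1.03 in vehicle and from 0.79 to 1.37 at the high dose, their median change was 0.12, and Ngp and Retnlg were above background on 1 of 20 arrays each. The part of these markers in the stefin A values was not tested.

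Without lung mouse 6 the spread of the other genes shrank. At the high dose 5 genes were then called, where 1.98% of all genes were: Tgm1 rose by 0.60 ± 0.093 (limma adjusted p 0.00046) and Cnfn fell by 0.79 ± 0.20 (limma adjusted p 0.0231), besides the stefin A genes. With the array these had been 0.60 ± 0.25 (limma adjusted p 0.195) and -0.79 ± 0.38 (limma adjusted p 0.275). Lung Tgm1 was 0.44, 0.35, 0.28, 0.19 and 0.34 in vehicle and 0.64, 0.95, 0.75, 1.10 and 1.17 at the high dose, which do not overlap. At the medium dose limma called 0 of 43, where 0.638% of all genes were called, with 4 at an unadjusted p under 0.05 against 16% of all. Without mouse 6 there were 8, for which no share of all genes is at hand. At the low dose limma called 0, where 0.449% were called, with 5 at an unadjusted p under 0.05 against 10.1% of all. Those 5 were lost without mouse 6 (0 left), and the median low-dose change went from 0.61 to -0.045.

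**Figure D5:**
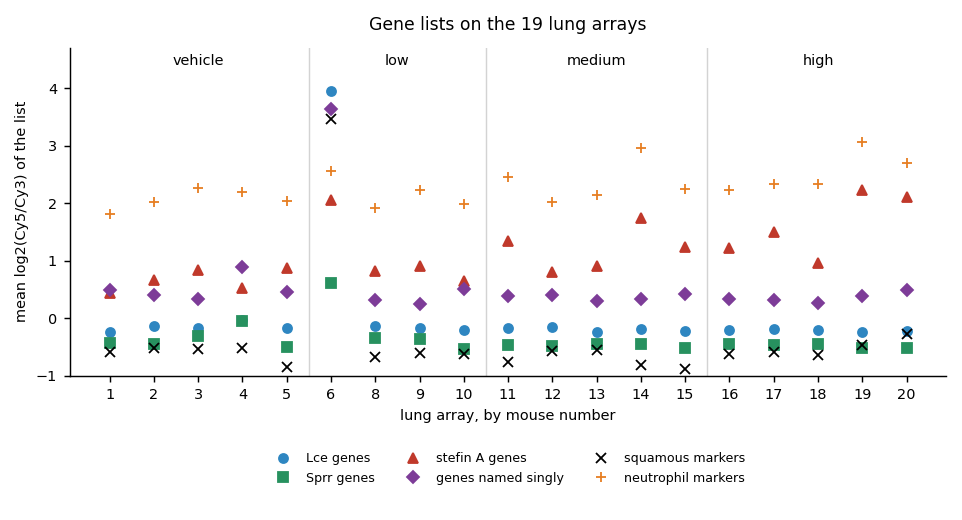
Mean log2(Cy5/Cy3) of the gene groups, of 6 squamous markers and of 8 neutrophil markers on each of the 19 lung arrays, by mouse number and dose group. Mouse 6 stands apart for Lce genes (3.95), singly named genes (3.64) and squamous markers (3.46), and mouse 19 has the highest stefin A mean (2.23) and neutrophil mean (3.07).

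In liver no envelope gene was called over all arrays, but Lor was called without the third slide. At the high, medium and low dose limma called 0, 0 and 0 of the 43, where 0.00538%, 0% and 0% of all genes were called. At an unadjusted p under 0.05 there were 1 (Sprr1b, 0.31 ± 0.13), 2 and 0, against 8.04%, 4.52% and 3.29% of all genes. With the slide as a block 0 of 43 were called at the high dose, where 0.347% of all genes were. Without the third slide, 1 of 43 was called, where 1.04% of all genes were: Lor rose by 1.38 ± 0.14 (limma adjusted p 0.000136, 2 high-dose against 4 vehicle mice). The log2 ratio of Lor on the other slides was 0.83, 0.71, 0.56 and 0.46 in vehicle mice 1 to 4. Low-dose mice 7, 8 and 9 had 0.80, 0.93 and 1.00, medium-dose mice 12, 13 and 14 had 1.28, 1.04 and 1.20, and high-dose mice 16 and 17 had 2.27 and 1.78. Neither of these 2 high-dose values overlapped with another group, but no share of all genes is at hand for this, so it is not read as a result. On the third slide, where no Lor spot was well above background, values lay between -0.24 and 0.16. Within the second slide, which held both of these high-dose mice and 2 vehicle mice, the difference was 1.25, and with the slide as a block over all arrays it was 0.69 ± 0.17 (limma adjusted p 0.0655). By the probe brightest in forestomach, Cy3 was well above background on no liver array for 23 of the 43 genes and on all 20 for 7. In Cy5, 34 of the 43 were well above background on no liver array by that probe, so that for most genes liver gives only Cy5 at its floor. Other probes of Sprr2a2 and Tgm3 were well above background on 20 and 12 liver arrays. The 4 stefin A changes at the high dose lay between -0.04 and 0.01 over all arrays. With Cy5 alone over all arrays, Lor was at 0.20 ± 0.33 (limma adjusted p 0.764). Its Cy3 was well above background on 0 of 20 liver arrays. By that channel 35 of the 43 were higher and 5 had an unadjusted p under 0.05, all higher, for which no share of all genes is at hand. The lowest limma adjusted p by the probe brightest in forestomach was 0.387.

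Whether the high-dose change differed between tissues was tested directly. Between forestomach and lung it did for 1 of 43 genes, Sprr2k (difference 1.68 ± 0.40, limma adjusted p 0.0265), where 1.03% of all genes differed. Sprr2k was well above background on 1 of 19 lung arrays, and its lung log2 ratio was -0.05 ± 0.09 (SD, n = 5) in vehicle and -0.22 ± 0.06 at the high dose. Leaving out 1 mouse kept the difference between 1.55 and 1.79, with an adjusted p of 0.0376 to 0.0937 and a lost call in 6 of 10 runs (mice 1, 3, 5, 17, 18 and 20). With Cy5 alone it was 1.29 (limma adjusted p 0.198). Without lung mouse 6, 2 genes differed, where 1.04% of all did, the other being Tgm1 (-0.85 ± 0.22, limma adjusted p 0.0467). The stefin A changes were not shown to differ between the tissues: the difference was 1.24 ± 0.79 for Stfa1 (limma adjusted p 0.657), 1.02 ± 0.52 for Stfa2 (0.501) and 0.30 for Stfa2l1. Between forestomach and liver 0 of 43 differed by limma (0.0404% of all genes did). At an unadjusted p under 0.05 there were 12, for which no share of all genes is at hand. The largest difference was that of Stfa1 (2.84 ± 0.65, limma adjusted p 0.179). With the slide as a block, Stfa1 was called between forestomach and liver (2.83 ± 0.56, limma adjusted p 0.0306), where 0.0996% of all genes were, and Sprr2f joined Sprr2k between forestomach and lung (1.05 ± 0.28, limma adjusted p 0.0489), where 1.24% of all genes were. Without the third liver slide, Lor was called between forestomach and liver (-1.71 ± 0.20, limma adjusted p 4.64e-05), where 0.229% of all genes were, and Stfa1 was not (2.70 ± 0.86, limma adjusted p 0.315).

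The other genes of the pathway gave no called change in forestomach at the high dose, where 0.102% of all genes were called and 9.03% had an unadjusted p under 0.05. Of 16 further envelope and granule proteins limma called 0, with 3 higher and 2 lower at an unadjusted p under 0.05 and a median of -0.09. Among these were Crnn, coding for cornulin (0.94 ± 0.23, limma adjusted p 0.156), and Tchh, coding for trichohyalin (0.69 ± 0.16, 0.14). Of 14 envelope proteases and lipid enzymes it called 0, with Asprv1 at -0.26 (unadjusted p 0.00531) and 11 of 14 lower. Of 5 desmosome genes it called 0 (0 at an unadjusted p under 0.05), and of 19 regulators of squamous differentiation it called 0, with 1 (Arnt, 0.21) at an unadjusted p under 0.05. The squamous markers had a median change of -0.07 with 0 called and 0 at an unadjusted p under 0.05. Of 9 glandular markers 8 were higher (median 0.67, 0 called, 0 at an unadjusted p under 0.05), and of 6 smooth muscle markers all were lower (median -0.25, 0 called, 3 at an unadjusted p under 0.05). In lung, where 1.93% of all genes were called, 2 of the 19 regulators were: Klf4, a Krüppel-type factor of barrier formation, rose (0.92 ± 0.12, limma adjusted p 0.000109) and Gata3 fell (-0.65 ± 0.18, limma adjusted p 0.0296).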

How the data were processed

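RNA of 20 mice was hybridised to 59 two-colour Agilent arrays with 62976 spots, 59305 of them not controls. Per the file headers, the authors extracted spot values with Feature Extraction 10.7.3.1, and the median spot intensity of Cy5 and Cy3 and the flags of each spot were taken from the deposited scanner files. The authors also deposited log2 ratios of all arrays, by the methods LOWESS-normalized without background subtraction, with column medians of -0.041 to -0.0072. These come with no stated scale, centring or direction, correlated with the ratios computed here (lowest r 0.996 in forestomach, 0.995 in lung and 0.967 in liver), and served as an alternative. The Fs statistic of the study was not run.

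Ratios were formed from median intensity with no background subtraction and loess within arrays (R 4.3.3, limma 3.58.1, and data.table, version 1.17.8), controls and non-uniform spots left out (484 missing values after averaging to 55681 probes). Probes were named through transcript accessions in RefSeq (GRCm38.p6), and 26413 matched 20018 symbols. limma's lmFit and eBayes were run within each tissue, and over both tissues for tissue differences, with Benjamini-Hochberg adjustment over all probes. A gene was called where any of its probes had an adjusted p of at most 0.05 and a change of 1.5-fold or more, and its values are those of the probe brightest in Cy5 in forestomach. Named genes were those called, the 5 with the largest positive and the 5 with the largest negative high-dose change in forestomach among genes above background there, the 3 brightest and the singly named genes. Others are examples chosen after their values were seen. Genes and lists were chosen with earlier results of these data known. The mouse number marks 1 animal across tissues. Deviations from group means correlated at -0.0378 to 0.0905 between forestomach and lung and at -0.0951 to 0.147 between forestomach and liver. The code was tested on simulated data. Array number limits the precision. Alternatives covered scaling, background, dim probes, slide and mouse as a block, the third liver slide left out, left-out mice, and, chosen after seeing the data, lung mouse 6 and Cy5 alone.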

Additional observations from a re-analysis of the deposited data

Results flagged for a closer look

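Of 128 group series examined for a sample far from the others, 9 held one, and chance gives about 1 in 20. Lung low-dose mouse 6 had 3 of them: the mean log2 ratio of the Lce genes was 3.95 (others -0.21 to -0.14), that of the singly named genes 3.64 (others 0.24 to 0.51), and Stfa1 was 2.60 (others 0.60 to 0.71). In lung vehicle, the singly named genes of mouse 4 averaged 0.89 (others 0.33 to 0.48). In forestomach vehicle, the singly named genes of mouse 2 averaged 5.14 (others 4.90 to 4.93), Stfa2 of mouse 5 was 1.81 (others 3.29 to 3.74) and Sprr2f of mouse 3 was 0.49 (others 1.85 to 2.41). In forestomach at the low dose, Csta1 of mouse 9 was -0.24 (others 0.75 to 0.79). In liver vehicle, the Sprr genes of mouse 5 averaged 0.039 (others -0.31 to -0.24). That array is the only vehicle array on the third liver slide. The 8 arrays of that slide had Sprr means of -0.11 to 0.050, with 0 envelope genes well above background by the probe brightest in forestomach. The high-dose change of Sprr2k differed between forestomach and lung by 1.68 in a direct limma test of that difference.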

How the results depend on the processing

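Without lung mouse 6, the high-dose count in lung went from 3 to 5 and the forestomach minus lung count from 1 to 2. With Cy5 alone, lung went to 1 (Stfa2l1), the forestomach trend from 1 to 0, and forestomach minus lung to 0. With median centring, forestomach at the high dose went from 0 to 2 (Stfa1, adjusted p 0.0332, and Sprr2k, 0.0396). With the slide as a block it went to 1 (Stfa1, 0.0375), forestomach minus lung to 2 (Sprr2k, Sprr2f) and forestomach minus liver from 0 to 1 (Stfa1). Without the third liver slide, whose arrays had at most 12.9% of probes well above background, liver at the high dose went from 0 to 1 (Lor), as calls over all genes went from 2 to 388, and forestomach minus liver went from 0 to 1 (Lor, 85 over all genes). The median change over the 43 genes in forestomach was 0.23 with median centring and 0.11 with Cy5 alone. In lung it was 0.12 over genes well above background, and in liver 0.11 with median centring, -0.011 without the third slide and 0.085 with Cy5 alone. Median centring moved the median of all genes in liver to -0.12, and the split of called genes in forestomach from 35 higher and 3 lower to 139 and 0 and in lung from 507 and 210 to 3174 and 34. The cause was not tested.

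With the mouse as a replicate block, the pairing left 1 gene called between forestomach and lung, 0 between forestomach and liver, and 41 and 41 for the vehicle levels, and changed no other call. Leaving out 1 mouse gave 2 to 3 called in lung at the high dose, 0 to 3 for the trend (without mouse 10 also Stfa2 and Stfa2l1), 0 to 1 for forestomach minus lung, 40 to 40 for the vehicle level against lung (Stfa1 was lost) and 39 to 42 against liver. It gave 0 to 0 for each other count, and medians of -0.088 to -0.027 in forestomach, -0.066 to -0.0047 in lung and 0.022 to 0.058 in liver.

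In forestomach at the high dose the sign turned with median centring for Lor (0.054), Lce1a1 (0.041), Lce1a2 (0.11), Tgm1 (0.026), Cnfn (0.23), Crct1 (0.26), Krtdap (0.17) and Csta1 (-0.11), with Cy5 alone for Cnfn (0.086) and Crct1 (0.075), and without 1 mouse for Crct1 (0.040 without mouse 3, range -0.16 to 0.040) and Csta1 (-0.011 without mouse 18, range -0.011 to 0.14). In liver no envelope gene passed the restriction to genes well above background by the probe brightest in forestomach, so it gave no median there. Signal over background limits lung and liver, where most of these genes give only a bound.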
